A study of Mus musculus with 9 samples.

Results

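The nuclear genes of the respiratory chain were followed across 9 polyadenylated RNA libraries of J1, a line of embryonic stem (ES) cells from 129S4/SvJae mice that was used at passage 5 to 7. A gene was a member if its symbol began with Ndufa, Ndufb, Ndufc, Ndufs, Ndufv, Sdha, Sdhb, Sdhc, Sdhd, Uqcr, Cyc1, Cox4, Cox5, Cox6, Cox7, Cox8 or Atp5, and Ndufa4l2 was left out. This rule used names and no measured value, and it gave 94 of the 18504 genes. The libraries form 8 groups. They are Yap1 overexpression (Yap1_OE) with its control BirA, 2 knockout-labelled libraries (Yap1_KO1, Yap1_KO2) set against the control ESC, a Yap1 knockdown (Yap1_KD) with its knockdown control, and differentiated ES cells with the Yap1 knockdown (differentiated knockdown) or without it (differentiated control). The constructs, the edit and the way of differentiation are not described here. Every group except the knockout-labelled pair is 1 library. A comparison of single libraries therefore comes without a p-value, and its differences were not checked by replicates.

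The respiratory chain carries electrons from NADH and succinate to oxygen in the inner mitochondrial membrane and pumps protons, and ATP synthase uses the proton gradient to make ATP. Complexes I, III and IV and ATP synthase mix subunits encoded in the nucleus with a few encoded in mitochondrial DNA, while complex II is wholly nuclear. ES cells rely strongly on glycolysis and remodel their mitochondria as they differentiate. By role, 43 members belong to complex I (7 core subunits, 29 accessory subunits and 7 assembly factors), 6 to complex II (4 subunits and 2 assembly factors), 9 to complex III, 19 to complex IV and 15 to ATP synthase. The other 2 members, Atp5s and Atp5sl, carry the prefix but are not counted as subunits. Ndufa4, named for complex I, is counted with complex IV, where its protein sits. Of the complex IV members, 7 are isoforms used mainly in particular tissues, such as muscle or testis.

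Yap1, the transcriptional coactivator restrained by the Hippo kinases, stood at 139 FPKM (fragments per kilobase of transcript, scaled to mapped fragments) in Yap1_OE, against 46.7 in BirA. It stood at 57.3 and 27.6 FPKM in the libraries labelled Yap1_KO1 and Yap1_KO2, against 65.4 in ESC. Yap1_KD had 4.55 FPKM against 37.4 in the knockdown control, and the differentiated knockdown had 12.5 against 78.0 in the differentiated control. The knockout-labelled libraries thus kept Yap1 RNA, and directions drawn from them are directions of libraries so labelled. Effective depth, read from the steps between low FPKM values, ran from 9202000 to 22340000 fragments. The ES cell markers Pou5f1, Nanog, Sox2 and Zfp42 summed to 1493 FPKM in the differentiated knockdown and 1131 in the differentiated control, and to 1761 to 2360 in the 7 undifferentiated libraries, and 0 of the 4 was at 0. The 10 differentiation markers summed to 196 FPKM in the differentiated knockdown and 1411 in the differentiated control. They summed to 198 in Yap1_OE against 27.4 in BirA, and to 10.3 to 26.9 in the rest. Most of each sum was the keratins Krt8 and Krt18, at 63.4 and 130 FPKM in Yap1_OE and 486 and 832 in the differentiated control. The mesoderm marker T had 0.0465 FPKM in Yap1_OE and 0.105 in BirA, against 70.7 in the differentiated control. Of 8 fibroblast markers 1 to 4 were listed at 0 per library, and the list summed to 111 to 233 FPKM. Most of that sum was Fn1 alone, at 105 FPKM in Yap1_OE, the lowest sum, and 194 in Yap1_KO1, the highest. Only 2 to 3 of the 8 markers reached 1 FPKM in a comparison.

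Respiratory chain genes were abundant in every library. Members had a median of 109 FPKM in the differentiated control, the lowest of the 9 libraries, and of 169 FPKM in Yap1_KD, the highest. The median of all genes at 1 FPKM or more lay between 11.4 and 13.4 FPKM. In ESC the ATP synthase genes had a median of 341 FPKM, complex III genes 296, complex II genes 128, complex I genes 119.7 and complex IV genes 96.7. The last value includes the tissue isoforms, each of which stood below its common counterpart. Atp5b, the catalytic beta subunit of ATP synthase, lay between 1261 and 1756 FPKM over the 9 libraries and Cox4i1, a common complex IV subunit, between 1003 and 1868. Of the 86 members at a mean of 5 FPKM or more, 21 differed over 2-fold between their highest and lowest library. Differences over 3-fold were found in 4, which were Cox7a1, Cox6b2, Ndufv3 and Ndufb4. The lowest value of a member fell in the differentiated control for 47 of these 86, and the highest in Yap1_KD for 51.

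Not every member could be read. Ndufs5 was listed at 0 in 8 libraries and at 0.173 FPKM in Yap1_KD, and Atp5g2 lay at 0.463 FPKM or less. Of the 50-base stretches of their transcripts, 41.2% (Ndufs5) and 87.4% (Atp5g2) also stand in a transcript of another gene. In all, 21 members shared over 10% of such stretches with another gene, so their values are uncertain. Atp5h, Atp5l and Uqcrb also have a transcript under 1000 nt (nucleotides) and at least 3 annotated pseudogenes. Cox6a2 and Cox8b, the heart and skeletal muscle isoforms, were at 0 or at most 0.654 FPKM in each library. Members reached 1 FPKM in at least 1 library in 90 of 94 cases, and 88 to 90 passed that filter in a comparison.

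Members are short, with a median transcript of 863 nt against 2784 nt for all genes. The log2 ratio, here always of FPKM plus 1, followed transcript length or GC content across all genes in most pairs of libraries. Spearman's rho with length was 0.24 for Yap1_OE over BirA, 0.28 for the knockout-labelled pair over ESC, -0.23 for Yap1_KD over its control and -0.083 in the differentiated pair. These values are across genes, which are not independent replicates. Values are therefore also given after a smooth trend on length and GC content, fitted over all genes, was removed. For the shortest members these values rest on the end of that fit. Cox7a1 (393 nt) went from 0.51 to 0.96 in the knockout-labelled pair over ESC. All 911 tested genes under 1000 nt had a median of -0.16 there. Ndufa1 (419 nt) went from -0.018 to 0.98 in the differentiated knockdown over Yap1_KD.

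The undifferentiated controls were not alike in these genes. BirA was above ESC for 73 of 89 members (47.9% of all genes were), with a median log2 ratio of 0.20. At least 1.5-fold higher were 6 members and lower were 0, against 5.34% and 4.07% of all genes. The knockdown control was above ESC for 66 of 89 members (49.2% of all genes), with a median of 0.22. At least 1.5-fold higher were 10 members and lower were 0, against 11.9% and 10.4% of all genes. The median of all genes was -0.016 for BirA and -0.011 for the knockdown control over ESC. With the trend removed the medians of members were 0.12 and -0.043. Shifts of about this size therefore also occurred between libraries with no labelled change of Yap1. BirA and ESC are also the controls of the overexpression and knockout-labelled libraries described next.

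**Figure D1:**
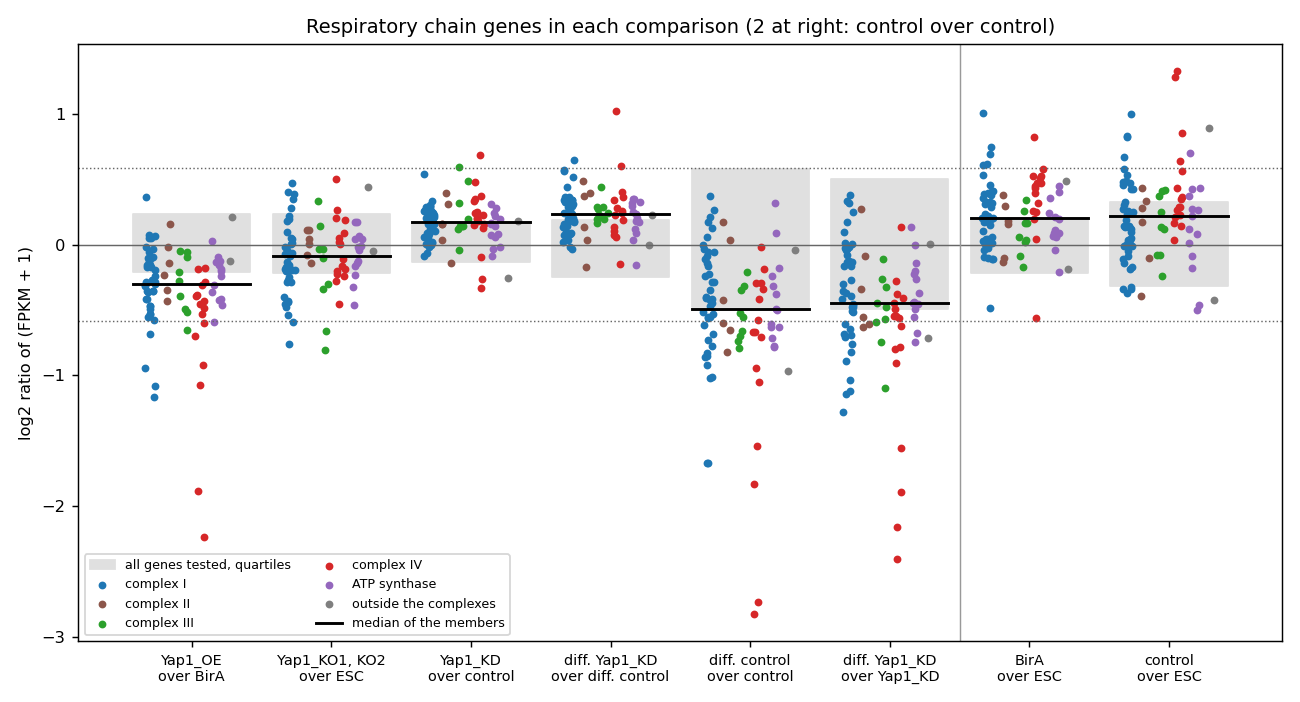
Log2 ratio of FPKM plus 1 of each member (point, coloured by complex) in 6 comparisons and, right of the line, in 2 comparisons of controls. Black bars are medians of members (-0.30 for Yap1_OE over BirA, -0.49 for the differentiated over the knockdown control), grey boxes the quartiles of all genes tested, and dotted lines 1.5-fold.

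Under Yap1 overexpression, most respiratory chain genes were lower than in BirA, in all 5 complexes. Of 89 members tested 81 were below BirA, while 52.3% of all genes were above it. The median log2 ratio of members was -0.30 against 0.019 for all 11599 genes. At least 1.5-fold lower were 12 members (7.98% of all genes) and at least 1.5-fold higher were 0 (5.39% of all genes), and 5 members were at least 2-fold lower (2.35% of all genes). By complex the medians were -0.47 for complex IV, with 16 of 16 below BirA, -0.29 for complex I, with 37 of 42 below, and -0.28 for complex III, with 9 of 9 below. ATP synthase genes had -0.22, with 13 of 14 below, and complex II genes -0.19, with 5 of 6 below. In a bulk library fewer cells of a type and less RNA per cell cannot be told apart. Yap1_OE also differed from BirA in the differentiation markers given above, mostly in Krt8 and Krt18. The part of those markers in the difference was not tested.

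Most catalytic and core genes were also below BirA, among them 4 of the 5 F1 genes and 6 of the 7 core subunits of complex I. The exceptions were Atp5c1, the gamma subunit that turns inside F1, at 260.5 FPKM in Yap1_OE against 256 in BirA, and Ndufs1, the largest core subunit of complex I, at 102 against 98.0. Atp5b had 1641 FPKM in Yap1_OE against 1756 in BirA, and Atp5a1, the alpha subunit of the same F1 head, had 716 against 785. Cyc1, the cytochrome c1 of complex III, had 268 FPKM in Yap1_OE against 326 in BirA, and Uqcrc1, a core protein of that complex, had 211 against 277. The Rieske iron-sulfur protein gene Uqcrfs1 had 121 FPKM in Yap1_OE and 125 in BirA, and Uqcrc2, the other core protein, had 124 and 129. These complex III genes were all below BirA, by little in the last pair. Sdha, the flavoprotein that oxidises succinate, had 129.6 FPKM in Yap1_OE and 131 in BirA, and Sdhb, the iron-sulfur subunit, 132 against 168. The membrane anchors Sdhc and Sdhd had 169.9 against 229 and 122 against 134 FPKM. The 7 core subunits of complex I had a median log2 ratio of -0.13 and the 28 accessory subunits tested a median of -0.35.

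The largest ratios lay in a few complex IV isoforms and complex I accessory subunits. Cox7a1, the heart and muscle form of a small complex IV subunit, had 22.4 FPKM in Yap1_OE against 85.6 in BirA, or 26.2% of it. Its common counterpart Cox7a2 had 202 against 265 FPKM, or 76.3%. Cox4i2, the form of subunit 4 known to be induced by low oxygen, had 0.659 FPKM in Yap1_OE against 6.80 in BirA, while Cox4i1 had 1150.3 against 1550.0. Of each of these pairs the isoform was further below BirA than the common form. Cox6b2, a testis form, had 29.7 FPKM in Yap1_OE against 57.2 in BirA, and its counterpart Cox6b1 511 against 738. Cox8c, another testis form, was listed at 0.159 FPKM in Yap1_OE against 1.44 in BirA, a few fragments in all, and Cox8a had 638 against 838. Cox4i2 and Cox8c, both counted as at least 2-fold lower, passed the filter of 1 FPKM only through BirA, where they were higher. In complex I, Ndufv3, an accessory subunit of the NADH-oxidising module, had 147 FPKM in Yap1_OE against 331 in BirA, or 44.4%. The accessory subunits Ndufa7 and Ndufb4 were also lower. Ndufa7 had 366 FPKM in Yap1_OE against 704 in BirA. Ndufb4 had 9.73 against 21.7 FPKM, with 37.0% of its stretches shared with another gene. Cox6a1, Ndufc1, Uqcrq, Cox7b and Atp5j2, all small subunits, made up the rest of the 12, with log2 ratios of -0.70 to -0.60. On the high side Ndufaf4, an assembly factor of complex I, had 7.87 FPKM in Yap1_OE and 5.89 in BirA. The next log2 ratios were 0.21 for Atp5sl, 0.16 for the complex II assembly factor Sdhaf2, 0.07 for the complex I assembly factor Ndufaf5 and 0.06 for the accessory subunit Ndufa10.

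Against the ESC control the same library was closer. For Yap1_OE over ESC the median log2 ratio was -0.076, with 60 of 89 members below (49.8% of all genes were above) and 7 at least 1.5-fold lower (7.16% of all genes). Cox7a1 stood at 64.8 FPKM in ESC and Ndufv3 at 242, so Yap1_OE was below either control for them. With the trend on length and GC content removed, Yap1_OE over BirA had a median of -0.18, with 72 of 89 below and 8 at least 1.5-fold lower. Hypoxia-response genes were lower beside the isoforms. Of 8 such genes of pyruvate use and respiration, 8 were below BirA and 6 at least 1.5-fold (7.98% of all genes). Among them were the mitophagy receptor Bnip3 (4.97 FPKM in Yap1_OE, 30.2 in BirA) and the pyruvate dehydrogenase kinase Pdk1 (34.6 and 66.3). The left-out paralog Ndufa4l2, another gene induced by low oxygen, had 0.963 FPKM in Yap1_OE and 29.0 in BirA, against 7.39 in ESC. Over ESC, 8 of the 8 listed genes were also lower in Yap1_OE, 1 of them at least 1.5-fold (7.16% of all genes). BirA itself was above ESC for 7 of the 8, with 3 at least 1.5-fold higher (5.34% of all genes). The part of these hypoxia-response genes in the difference of members was not tested.

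Cox7a1 and Ndufv3, which had the lowest ratios of Yap1_OE over BirA among the members at 10 FPKM or more, and Cox6a1 and Uqcrc1, common subunits, are shown by their promoter windows. Each window runs from 250 bases before to 50 after the RefSeq gene start (GRCm38.p6, written 5′ to 3′ on the strand of the gene). Capitals mark a match to the core motif of NRF1, a regulator of nuclear respiratory genes (CGCNTGCG), or to the core of the hypoxia response element (ACGTG), on either strand. Cox7a1 lies at chr7:30183921-30184220 on the plus strand, Ndufv3 at chr17:31519865-31520164 (plus), Cox6a1 at chr5:115348909-115349208 (minus) and Uqcrc1 at chr9:108936398-108936697 (plus).
Cox7a1: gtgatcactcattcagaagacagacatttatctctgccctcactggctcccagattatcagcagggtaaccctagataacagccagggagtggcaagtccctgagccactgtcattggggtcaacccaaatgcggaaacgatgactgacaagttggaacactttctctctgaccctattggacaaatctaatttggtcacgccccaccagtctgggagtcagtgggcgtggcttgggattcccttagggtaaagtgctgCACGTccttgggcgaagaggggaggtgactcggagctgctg
Ndufv3: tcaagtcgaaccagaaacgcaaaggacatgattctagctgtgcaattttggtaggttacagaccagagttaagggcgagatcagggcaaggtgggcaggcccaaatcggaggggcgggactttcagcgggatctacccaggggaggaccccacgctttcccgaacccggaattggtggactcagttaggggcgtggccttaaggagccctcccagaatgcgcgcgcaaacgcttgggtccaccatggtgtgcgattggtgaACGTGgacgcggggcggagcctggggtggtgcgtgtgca
Cox6a1: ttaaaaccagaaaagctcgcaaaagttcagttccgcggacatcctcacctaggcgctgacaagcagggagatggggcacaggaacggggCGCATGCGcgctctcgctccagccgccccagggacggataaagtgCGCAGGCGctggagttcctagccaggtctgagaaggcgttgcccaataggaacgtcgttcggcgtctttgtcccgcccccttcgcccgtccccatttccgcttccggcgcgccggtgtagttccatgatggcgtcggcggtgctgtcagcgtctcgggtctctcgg
Uqcrc1: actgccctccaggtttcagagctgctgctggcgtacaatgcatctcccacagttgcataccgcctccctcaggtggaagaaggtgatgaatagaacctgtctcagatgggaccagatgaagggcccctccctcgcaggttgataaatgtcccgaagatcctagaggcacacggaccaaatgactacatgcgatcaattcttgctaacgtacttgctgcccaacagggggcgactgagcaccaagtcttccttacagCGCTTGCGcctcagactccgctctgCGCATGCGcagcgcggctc
Cox6a1 and Uqcrc1 each hold 2 NRF1 matches and 0 of ACGTG, and Cox7a1 and Ndufv3 hold 0 NRF1 matches and 1 of ACGTG each. Cox6a1 is itself among the 12 lower members, and of the others Cox6b2 holds 0 of either motif, Ndufb4 holds 3 NRF1 matches and 0 of ACGTG, and Ndufa7 holds 1 and 2. Cox6a1 and Uqcrc1 are examples and do not stand for all common subunits. Cox7a2, the common counterpart of Cox7a1, holds 0 of either motif, and so do Cox6b1, Cox7b and Cox7c. Windows were found for 78 of the 94 members, 84 windows in all. The NRF1 core stood in 33 of these 84 (39.3%), against 8.21% of all 32851 windows, and in 0 of the 4 windows of tissue isoforms. Those 4 are of Cox6b2, Cox7a1, Cox7b2 and Cox8b, and no window was found for Cox4i2, Cox6a2 or Cox8c. The YY1 core AAGATGGC stood in 14.3% of member windows and 2.75% of all. The ETS motif CCGGAAGT of GABPA stood in 5.95% of member windows and 3.89% of all, and ACGTG in 27.4% and 19.6%. The motif GGAATG of the TEAD factors, through which YAP acts, stood in 10.7% of member windows and 14.7% of all. Both strands were searched, and the motifs do not contain each other. A match describes letters and is not a bound site.

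**Figure D2:**
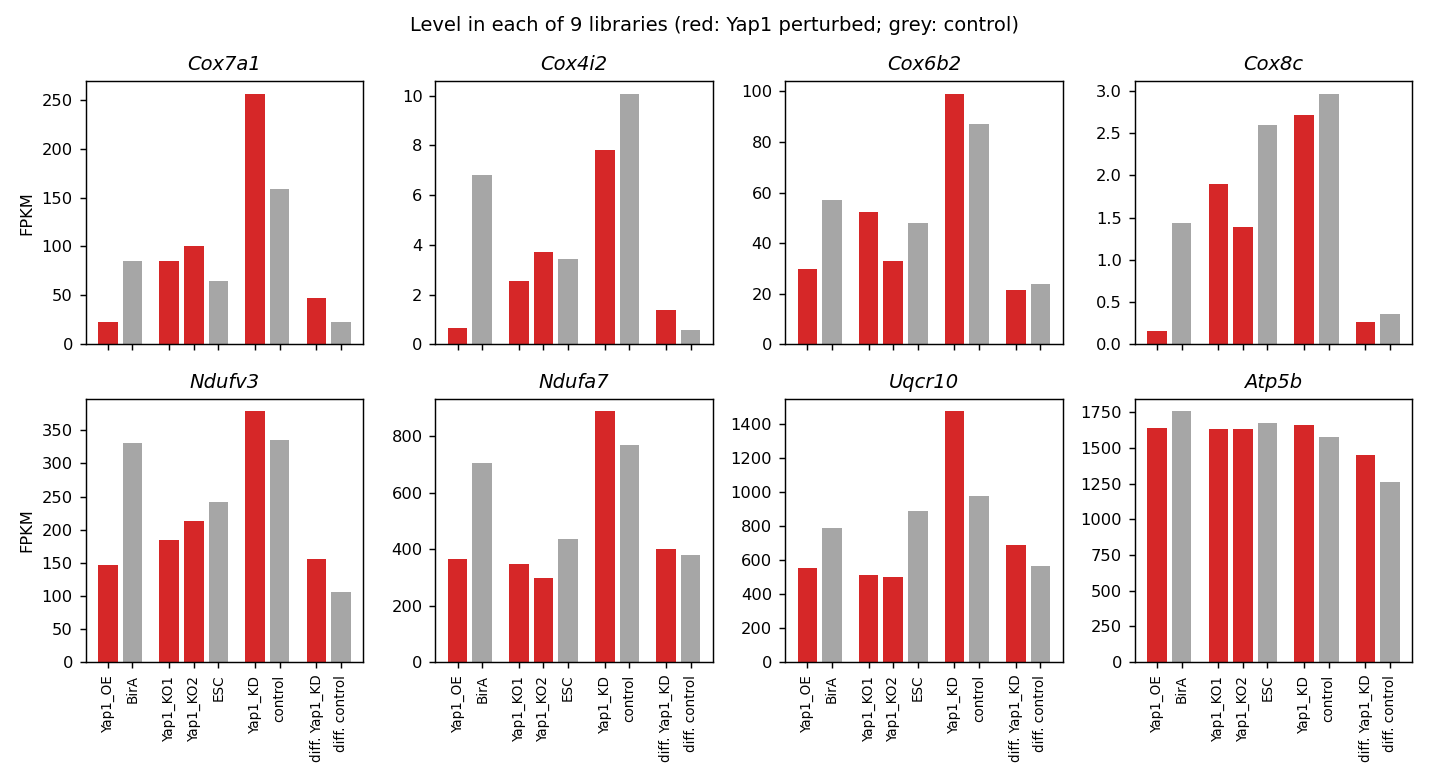
FPKM of 8 members in each library (bars start at 0; red, Yap1 perturbed; grey, its control; each bar is 1 library). Cox7a1, Cox4i2, Cox6b2 and Cox8c are tissue isoforms of complex IV and stand lowest in Yap1_OE and the differentiated pair, while Atp5b spans 1261 to 1756 FPKM.

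In the libraries labelled Yap1_KO1 and Yap1_KO2, the median of members was slightly below ESC, and the share at least 1.5-fold lower was close to that of all genes. The median log2 ratio was -0.084 (all genes 0.0061), with 56 of 89 members below ESC (50.8% of all genes were above). In the single libraries the medians were -0.057 and -0.11. At least 1.5-fold lower were 4 members (5.24% of all genes), and 0 were higher (4.34% of all genes). A limma fit over all 11538 genes, adjusted by Benjamini-Hochberg, called 0 members, while it called 20 genes (0.173%). At an unadjusted p under 0.05 it gave 18 of 89 members (20.2%), of which 4 were higher, against 23.1% of all genes. That fit has 1 residual degree of freedom and did not call Yap1 itself (log2 change -0.70, SE 0.45). It cannot show that members were unchanged. Whether Yap1_KO1 and Yap1_KO2 are separate clones or cultures is not stated, so their spread may be technical.

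The lowest ratio was that of Uqcr10, a small subunit of complex III. It stood at 513 and 498 FPKM in Yap1_KO1 and Yap1_KO2 (mean 505 ± 10.5, SD, n = 2), against 885 in ESC. The log2 change of Uqcr10 was -0.81 (SE 0.084), with an adjusted p of 0.144 by limma. With small RNA rows left out of the test, Uqcr10 alone of the members passed (limma, adjusted p = 0.0319), and over all alternatives the smallest adjusted p of a member ran from 0.0319 to 0.281. Uqcrq, another small complex III subunit, stood at 441 and 354 FPKM in Yap1_KO1 and Yap1_KO2 against 626 in ESC. Ndufab1, the mitochondrial acyl carrier protein that is also a complex I subunit, stood at 7.21 and 8.53 FPKM against 14.0, and Ndufaf3, an assembly factor, at 9.82 and 10.5 against 15.8. Both knockout-labelled libraries were below ESC for these 4 genes. Ndufa12, an accessory subunit, stood at 31.7 and 51.3 FPKM against 59.0 in ESC, so the pair disagreed in size. Of these, Ndufab1 shares 12.3% and Ndufa12 26.2% of its stretches with another gene.

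Higher ratios were smaller in extent. Cox7a1 stood at 84.7 and 101 FPKM in Yap1_KO1 and Yap1_KO2, against 64.8 in ESC (log2 change 0.51, SE 0.14; limma, adjusted p = 0.175). Ndufs1 stood at 126 and 126 FPKM against 98.7 in ESC. The assembly factor Ndufaf1 stood at 22.6 and 23.9 FPKM against 17.5, and Ndufaf4 at 11.8 and 11.7 against 8.66. For these 4 genes both libraries lay above ESC. For Cox7a1 the other controls did too, at 85.6 FPKM in BirA and 159 in the knockdown control. Both knockout-labelled values of Cox7a1 thus lay within the range of the controls. Ndufb4, with its shared stretches, stood at 17.8 and 12.1 FPKM against 10.3. Atp5b was at 1630.2 and 1629 FPKM against 1674 in ESC, and Sdha at 155 and 149 against 141. Cox4i2 was at 2.55 and 3.72 FPKM against 3.42, so the pair fell on either side of ESC. Between Yap1_KO1 and Yap1_KO2 the median absolute log2 difference of a member was 0.10, and 95% of members differed by at most 0.40. The ratios over ESC followed GC content across all genes (rho -0.61) and among members (rho -0.52). With the trend removed the median of members turned to 0.040, with 51 of 89 above ESC. Cox7a1 then passed (log2 ratio 0.96; limma, adjusted p = 0.0382), and Uqcr10 had a log2 ratio of -0.37.

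In Yap1_KD, most respiratory chain genes stood slightly above the knockdown control. The members above it were 78 of 90, while 51.5% of all genes were. The median log2 ratio was 0.17 against 0.0092 for all 11861 genes. The medians by complex were 0.18 for complex I, 0.16 for complex II, 0.15 for complex III, 0.21 for complex IV and 0.15 for ATP synthase. At least 1.5-fold higher were 2 members (2.2% of all genes) and at least 1.5-fold lower were 0 (2.02% of all genes). They were Cox7a1, at 256 FPKM in Yap1_KD against 159 in the control, and Uqcr10, at 1473 against 974.

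Other genes had the same direction. Ndufs8, a core iron-sulfur subunit of complex I, had 149 FPKM in Yap1_KD against 102 in the control, and 7 of the 7 core subunits were above it. Uqcrq had 950.5 FPKM against 679, Sdhb 219 against 166, and Cox4i1 1868 against 1596. Sdha had 109.5 FPKM in Yap1_KD and 107 in the control, Atp5b 1663 and 1573, and Cyc1 333 and 301. The lowest ratio was that of Cox4i2, at 7.81 FPKM in Yap1_KD against 10.1, followed by Cox7c, a common subunit of complex IV, at 63.8 against 76.6, with 53.0% of its stretches shared. Sdhaf1, an assembly factor of complex II, had a log2 ratio of -0.14. Over ESC in place of its own control, 27 of 90 members were at least 1.5-fold higher in Yap1_KD, against 14.8% of all genes. With the trend on length and GC content removed, the median over its own control was 0.061, with 61 of 90 above it, and 0 members were at least 1.5-fold apart. All 969 tested genes with a transcript under 1000 nt had a median of 0.14 in this comparison. Over both undifferentiated arms with less Yap1, limma with Benjamini-Hochberg adjustment called 0 of 90 members, and 2 genes of 12128 (0.0165%). At an unadjusted p under 0.05 it gave 1 member, Cox7a1, against 6.75% of all genes. Yap1 itself was not called, with a log2 change of -1.60 (SE 0.50) and an adjusted p of 0.710 by limma. A count of 0 called members therefore does not show that members were unchanged. The log2 change of Cox7a1 was 0.58 (SE 0.13, adjusted p = 0.576 by limma), and it was above the control in 3 of 3 libraries. Yap1_KO1 and Yap1_KO2 share ESC as their control, so these are not 3 separate comparisons. The undifferentiated controls themselves differed 2.45-fold in Cox7a1, from 64.8 FPKM in ESC to 159 in the knockdown control.

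In differentiated cells the knockdown stood above its control over the whole chain. Of 88 members tested 82 were higher, while 48.5% of all genes were. The median log2 ratio was 0.24 against -0.011 for all 11845 genes. Medians were 0.24 for complexes I, III and IV, 0.26 for complex II and 0.22 for ATP synthase. At least 1.5-fold higher were 3 members (5.49% of all genes) and lower were 0 (10.9% of all genes). With the trend on length and GC content removed, the median was 0.21, with 80 of 88 higher. This pair also differed in the markers of ES cells and of differentiation given above, whose part in the difference was not tested.

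Cox7a1 had 47.7 FPKM in the differentiated knockdown against 23.0 in the differentiated control, or 207%. Cox4i2 had 1.37 FPKM against 0.562, and passed the filter of 1 FPKM only through the differentiated knockdown. Ndufb5, an accessory subunit of complex I, had 109 FPKM in the differentiated knockdown against 69.5 in its control. These were the 3 members past 1.5-fold. Ndufv3 had 155 FPKM against 105, and Ndufa6, another accessory subunit, 185 against 129. All 7 core subunits of complex I were higher, such as Ndufv1, which binds NADH, at 121 against 99.2 FPKM. In complex II Sdha had 132 FPKM against 120.4, Sdhb 149 against 106, Sdhc 174 against 134 and Sdhd 147 against 111. In complex III Cyc1 had 277 FPKM against 242, Uqcrfs1 116 against 98.0, Uqcrc1 213 against 182 and Uqcrc2 114 against 94.0. Atp5a1 had 695 FPKM against 565 and Atp5b 1448 against 1261. The catalytic genes of complexes II and III and of F1 given here stood at 109.9% (Sdha) to 141% (Sdhb) of the differentiated control. Cox6b2, at 21.5 FPKM against 23.8, and Sdhaf1, at 12.6 against 14.3, were among the 6 members that were lower, and so was Atp5l (log2 ratio -0.15).

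**Figure D3:**
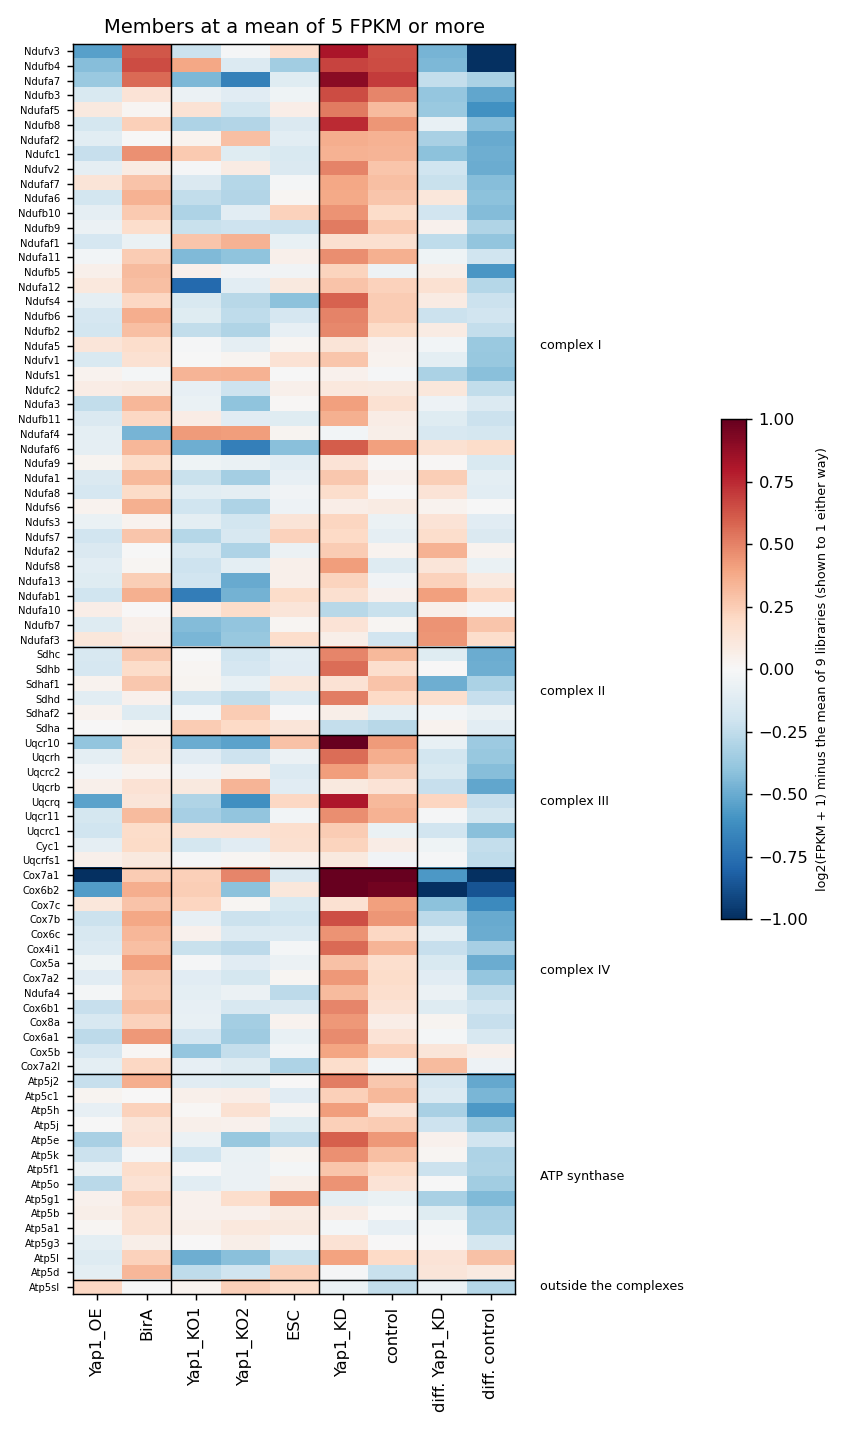
Log2 of FPKM plus 1 of 85 of the 86 members at a mean of 5 FPKM or more, as the deviation from the mean of the gene over 9 libraries (red above, blue below, shown to 1 either way), by complex. The differentiated control holds the lowest value of 47 of the 86 members and Yap1_KD the highest of 51.

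Differentiated control cells had lower levels of most members than the undifferentiated knockdown control. The members below it were 79 of 89, while 52.2% of all genes were above it, and the median log2 ratio was -0.49 against 0.040 for all 12436 genes. At least 1.5-fold lower were 35 members (21.1% of all genes) and at least 1.5-fold higher were 0 (24.7% of all genes), and 9 were at least 2-fold lower (10.1% of all genes). Medians were -0.67 for complex IV, with 16 of 16 lower, -0.55 for complex III, with 9 of 9 lower, -0.51 for complex II, -0.50 for ATP synthase and -0.41 for complex I. The 7 core subunits of complex I had a median of -0.059 and the accessory subunits a median of -0.44. With the trend removed, the median was -0.19, with 57 of 89 lower and 11 at least 1.5-fold lower. All 978 tested genes with a transcript under 1000 nt had a median of -0.36.

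The 4 tissue isoforms tested were among the 6 lowest ratios, with Ndufv3 and Ndufb4. Cox7a1 had 23.0 FPKM in the differentiated control against 159 in the knockdown control, or 14.5%, while Cox7a2 stood at 67.1%, at 167 against 249. Cox4i2 had 0.562 FPKM against 10.1, Cox6b2 23.8 against 87.3 and Cox8c 0.363 against 2.97. Ndufv3 had 105 FPKM in the differentiated control against 336 in the knockdown control, or 31.3%, and Ndufa7 379 against 769.7. With the trend removed these genes stayed lower. Their log2 ratios were then -2.34 for Cox7a1, -2.54 for Cox4i2, -1.47 for Cox6b2, -1.60 for Ndufv3 and -0.63 for Ndufa7. Among common subunits Cox4i1 had 1003 FPKM in the differentiated control against 1596, Sdhc 134 against 238 and Uqcrc2 94.0 against 153. Atp5c1 had 186 FPKM against 319.7. The highest log2 ratio was that of the assembly factor Ndufaf3, 0.37. Below it Atp5d, the F1 delta subunit, had 307 FPKM in the differentiated control against 247, Ndufb7, an accessory subunit of complex I, 205 against 171, and Sdha 120.4 against 107. Bnip3, of the hypoxia list, had 2.42 FPKM in the differentiated control against 55.1. Of the 8 genes of that list, 6 were at least 1.5-fold lower and 1 was higher (21.1% and 24.7% of all genes). Ndufa4l2 had 0.322 FPKM against 31.3. The part of these genes and of the cell type markers in the difference was not tested.

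The differentiated knockdown was lower than undifferentiated Yap1_KD as well. Its median log2 ratio was -0.45 (all genes 0.0035), with 78 of 90 members below (50.2% of all genes were above). At least 1.5-fold lower were 28 members (21.4% of all genes) and higher were 0 (21.8% of all genes), and 9 were at least 2-fold lower (10.4% of all genes). With the trend removed the median was 0.025 and turned its sign, with 48 of 90 above. Cox7a1 then had a log2 ratio of -1.51, Cox6b2 -1.55, Cox4i2 -1.45, Cox8c -0.64 and Ndufv3, an accessory subunit, -1.20, so these 5 stayed lower. The isoform Cox7b2, at most 1.09 FPKM in any library, had -0.78 as deposited and turned to 0.40. Cox7b2 and Cox8c passed the filter of 1 FPKM only through Yap1_KD, where they were higher. Their lower ratios as deposited are therefore no separate support. In FPKM, Cox7a1 had 47.7 in the differentiated knockdown against 256 in Yap1_KD, or 18.6%, and Ndufv3 155 against 379. The highest log2 ratios were 0.38 for Ndufaf3, 0.33 for Ndufa10, 0.32 for Ndufb7, 0.27 for Sdha and 0.25 for Ndufab1. Each of the 4 libraries of these differentiation comparisons also stands in a knockdown comparison above.

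**Figure D4:**
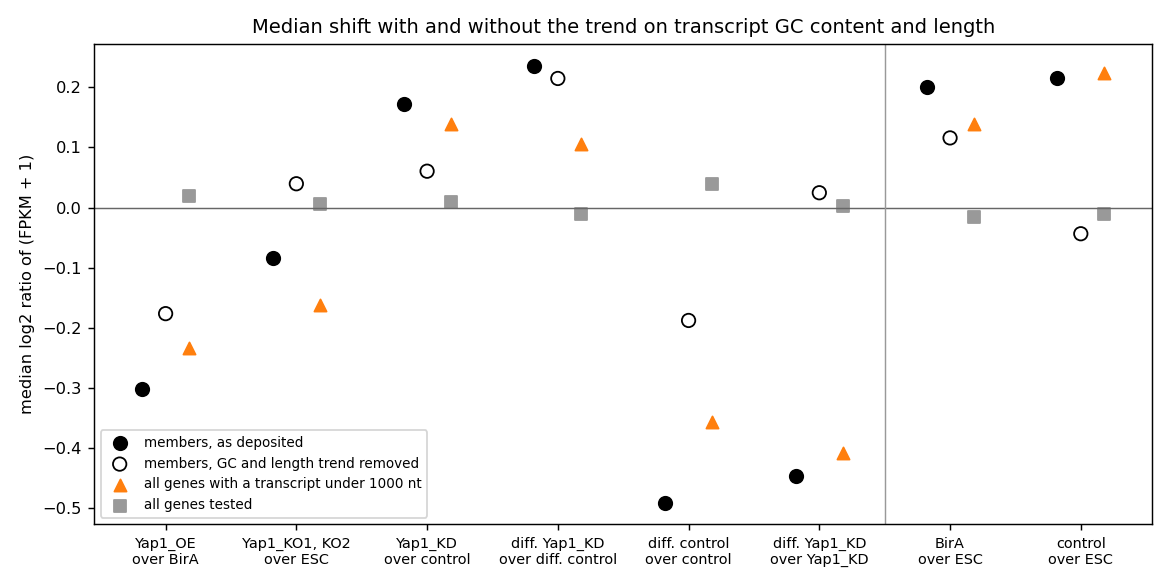
Median log2 ratio of FPKM plus 1 of members as deposited (filled circles) and after a trend on GC content and length was removed (open circles), of all genes with a transcript under 1000 nt (triangles) and of all genes tested (squares). With the trend removed, the median of members is 0.21 in the differentiated knockdown over its control, and it turns sign for the knockout-labelled pair and for the differentiated knockdown over Yap1_KD.

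Other genes of mitochondrial respiration were set beside the members as lists. Of 18 genes of the citric acid cycle and pyruvate dehydrogenase, 0 were at least 1.5-fold apart in Yap1_OE or the knockout-labelled pair. The same held under either knockdown. Of all genes, 2.02% to 10.9% were so in each direction of these comparisons. Medians of the 18 were -0.040 in Yap1_OE over BirA and 0.056 in the knockout-labelled pair over ESC. They were 0.0062 in Yap1_KD and 0.093 in the differentiated knockdown over their controls. In the differentiated control 2 of the 18 were at least 1.5-fold lower than in the knockdown control (21.1% of all genes), with a median of -0.28. Citrate synthase, Cs, lay between 103 and 121 FPKM over the 9 libraries. The 77 genes of the mitochondrial ribosome had medians of -0.078 in Yap1_OE over BirA, -0.16 in the knockout-labelled pair over ESC, 0.12 in Yap1_KD and 0.17 in the differentiated knockdown over their controls. In the differentiated knockdown 66 of these 77 were above the control. Differentiated over undifferentiated control cells gave a median of -0.26, with 18 lower and 1 higher by at least 1.5-fold, against 21.1% and 24.7% of all genes.

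The assembly genes of complex IV, 20 in all, had a median of -0.025 in Yap1_OE over BirA and of 0.032 in the differentiated knockdown over its control. Of 8 assembly genes of complex I outside the rule, 5 were above BirA in Yap1_OE, with a median of 0.049. Of the 5 genes tested from the list of cytochrome c and complex III assembly, 5 were below the knockdown control in the differentiated control. Their median was -0.55, while 52.2% of all genes were above the knockdown control. The cytochrome c gene Cycs, at most 0.859 FPKM, did not pass the filter and is not among these 5. Of 15 regulators of mitochondrial transcription and biogenesis, 5 were above BirA in Yap1_OE, with a median of -0.021. Among them Tfam, which packages mitochondrial DNA, had 37.6 FPKM in Yap1_OE and 38.2 in BirA, and Nrf1 28.1 and 23.7. Ppargc1b, a coactivator of mitochondrial biogenesis, had 1.20 FPKM in Yap1_OE and 2.53 in BirA. In the differentiated knockdown Ppargc1b had 3.55 FPKM against 1.76 in the differentiated control. Of the 15 regulators 1 was at least 1.5-fold higher there and 1 was lower (5.49% and 10.9% of all genes), with a median of 0.071. Of the 4 genes for ATP synthase assembly and inhibition, 3 were below BirA, among them the inhibitor gene Atpif1 at 604 FPKM in Yap1_OE against 854.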

How the data were processed

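Polyadenylated RNA of 9 libraries in 8 groups was analysed. The authors deposited 1 table whose values were taken as FPKM. Per the submitters' processing notes, TopHat2 and Cuffdiff were used on the genome build mm9, and the table names no unit. The versions, the gene annotation and the strandedness were not found in the labels. Cuffdiff scales libraries against each other, estimates values by likelihood and divides by an effective length. A 0 can thus be a failed estimate, and values of transcripts near the fragment length are sensitive to this step.

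Of 23277 rows 4746 were blank and 27 held symbols turned into dates, which left 18504 genes. Columns were matched to samples by title. Ratios used log2(FPKM + 1), with genes kept where a compared library reached 1 FPKM. The pseudocount of 1 understates ratios of low genes. Percentages of a control are ratios of FPKM. Fold counts are of genes at least 1.5-fold or 2-fold apart between single libraries (for the knockout-labelled pair, the mean of its log2 values). Called is used for genes with an adjusted p under 0.05 by limma. Replicated fits were made with limma (version 3.58.1, R 4.3.3), modelling the variance as a trend on the mean, and p-values are two-sided and adjusted by Benjamini-Hochberg at 0.05. They were tested on simulated data. A lone control is taken to vary as the knockout-labelled libraries do. Transcript length, GC content (98.9% of genes matched) and shared stretches came from GENCODE M21 on GRCm38, another build than mm9, using the longest transcript with a RefSeq match. Pseudogenes of a member are annotated pseudogenes with at least 20% of its 20-base stretches. Small RNA rows (176) took 16.0% to 23.8% of the summed FPKM.

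Depth came from the most common ratio of low values between each library and BirA (8.10% to 11.5% of such genes lie at it) and, for scale, from 437 genes. Its scaling is that of the deposited FPKM, so these depths are effective ones. The members at a mean of 5 FPKM or more had an estimated 71.8 fragments or more in every library, and the lowest library of a gene had a median of 1305. Members and lists were chosen with earlier results of these data known. Named genes are Yap1, members at least 1.5-fold apart, most of the highest and lowest ratios in each comparison, the isoform pairs, the catalytic subunits and at most 4 genes of each other list. Ndufv1 and Atp5c1 were chosen after their values were seen. The values of 1 member are not reported here. Of the 35 members lower in the differentiated control and the 28 in the differentiated knockdown, the leading ones are named. The NRF1 motif was shortened to its core after a longer form had been counted, in which the share of windows was lower both among members and in all. Alternatives were the pseudocount, the filter, scaling, trend removal, other controls and left-out members or libraries.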

Additional observations from a re-analysis of the deposited data

Results flagged for a closer look

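Cox4i2, the complex IV isoform known to be induced by low oxygen, had opposite directions under knockdown in the differentiated and undifferentiated cells. It had 1.37 FPKM in the differentiated knockdown against 0.562 in the differentiated control (log2 ratio 0.60), and 7.81 FPKM in undifferentiated Yap1_KD against 10.1 in the knockdown control (log2 ratio -0.33). The difference between these log2 ratios was 0.94. It was not tested, since each value is 1 library against 1, and the lowest level of the gene stands for an estimated 7.86 fragments. In the differentiated pair Cox4i2 passed the filter of 1 FPKM only through the knockdown, where it was higher.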

How the results depend on the processing

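Of 199 recomputed values 169 moved by less than the spread between the knockout-labelled libraries or, for counts, by at most 1.5-fold. Removing the trend on transcript length and GC content moved the most values past that. The median log2 ratio of members became -0.18 for Yap1_OE over BirA, 0.040 for the knockout-labelled pair over ESC and 0.061 for Yap1_KD over its control. It became -0.19 for the differentiated over the knockdown control and 0.025 for the differentiated knockdown over Yap1_KD. The counts at least 1.5-fold higher and lower became 3 and 2 in the knockout-labelled pair, 1 and 11 in differentiation of control cells and 6 and 9 in differentiation of knockdown cells. The higher count became 0 in Yap1_KD, and limma called 1 member in the knockout-labelled pair. The cause was not tested.

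Rescaling without small RNA rows gave medians of -0.25 (Yap1_OE over BirA), -0.035 (knockout-labelled pair), 0.10 (Yap1_KD, with 1 member at least 1.5-fold higher) and -0.54 (differentiated over knockdown control). Centring gave -0.53 for the last of these. With ESC as the control, an alternative chosen after seeing the data, Yap1_OE had a median of -0.076 with 7 members at least 1.5-fold lower (7.16% of all genes), and Yap1_KD one of 0.40 with 27 members higher (14.8% of all genes). With BirA and the knockdown control added to ESC, the knockout-labelled pair had a median of -0.23 with 9 members lower. In that pair a pseudocount of 0.1 gave 1 member higher and a pseudocount of 5 gave 2 lower. Without either of its libraries 1 to 2 members were higher. With small RNA rows left out of the test, limma called 1 member there. Medians kept their sign and moved by less than the spread of the knockout-labelled medians (SD 0.038) without the 3 members marked as uncertain, and without the 21 that share stretches, which was chosen after seeing the data. A fit of the knockout-labelled pair without a library leaves no residual degrees of freedom and gives values only. No paired analysis was possible because the groups compared share fewer than 2 replicate numbers. Depth limits Cox8c, Cox7b2 and Cox4i2, which stand for few fragments.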

Other observations

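Some genes that respiring cells need were near 0 in this table. Cycs, cytochrome c, lay between 0.250 and 0.859 FPKM over the 9 libraries. Of the 50-base stretches of its transcript 28.2% also stand in a transcript of another gene. Among the genes for the c ring of ATP synthase, Atp5g3 lay between 826 and 1030.0 FPKM and Atp5g1 between 50.6 and 93.9, while Atp5g2 did not pass 0.463 FPKM. Atp5l, with 9 annotated pseudogenes and 68.5% of its stretches shared, lay between 14.3 and 27.4 FPKM, below the median of 341 FPKM of ATP synthase genes in ESC. The levels of such genes cannot be set against those of other subunits.

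Ndufaf4 and Ndufs1 were above ESC in both knockout-labelled libraries, while 29 of 42 complex I genes were below it. As deposited their log2 ratios were 0.40 and 0.35, and with the trend on length and GC content removed they were -0.04 and 0.18.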
